A study of Mus musculus with 4 samples.

Results

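The 39 immediate early and activity-induced genes described here were taken as a named list, from the AP-1 factors to *Arc* and *Bdnf*, and each was read from its single-gene probe set with the highest mean. All 39 are on the annotated array, among 18194 genes in all. They were measured in the cerebral cortex of C57BL/6J mice aged 3 months, 24 h after the left middle cerebral artery had been permanently occluded (pMCAO). The 4 conditions were the contralateral and the ipsilateral, injured cortex of wild-type mice (WT_c and WT_i) and of P4H-TM deficient, or *P4htm*-/-, mice (KO_c and KO_i). *P4htm* encodes transmembrane prolyl 4-hydroxylase. Each condition is 1 Affymetrix array hybridized with the pooled RNA of 4 mice, so every difference below lacks a replicate check and no p-value is given. All 4 groups come from operated mice, so the contralateral side is the only control of the injury, and the methods describe deep anesthesia and saline perfusion, directly after magnetic resonance imaging, before the cortex was dissected. How the *P4htm*-/- line was made is not given in the sources used here beyond its backcross to C57BL/6.

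Immediate early genes are transcribed within minutes of a stimulus from factors already present in the cell, and their transcripts are short-lived. Calcium entry and MAPK signaling, acting through CREB at cAMP response elements (CREs) and through SRF and its partners at CArG boxes, switch them on. Many encode transcription factors, such as Fos, Jun and Egr proteins, which then act on later genes. Others encode brakes on the same signaling, such as the dual-specificity phosphatases, or proteins that act at the synapse, such as Arc. In cortex they are widely used as a record of recent neuronal activity, and after a stroke glial, vascular and immune cells express several of them as well.

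The values are log2 RMA values per probe set. A value counted as above background when it exceeded 4.80. Below this level lay 95% of the values of 80 probe sets of chemosensory receptors (olfactory, vomeronasal, taste), taken over the 4 arrays. Of the 39 genes, 38 lay above background on all 4 arrays, and *Fosl1* did so only in the ipsilateral cortex. A gene is called higher or lower when its values differ by at least 1.5-fold, which is 0.585 on the log2 scale, and at least 1 of the compared arrays is above background. The receptor probe sets differed between arrays by an SD between 0.18 and 0.21 in log2 units, which is a technical scatter without the variation between mice. It comes from values mostly below background, so it may not hold for brighter probe sets. *P4htm* read 10.03 in WT_c, 10.02 in WT_i, 8.27 in KO_c and 8.23 in KO_i, so both arrays labelled as deficient were lower for the targeted gene. Its other probe set gave -1.71 contralaterally and -1.58 ipsilaterally, and where either set lies relative to the inactivated part of the gene was not determined. As a check of the labelled tissue, 15 of 15 neuron markers were above background on every array. *Ttr*, a marker of choroid plexus, which is not cortex, read 8.71 in WT_c, 14.06 in WT_i, 9.03 in KO_c and 13.62 in KO_i.

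The DNA before the transcription start of these genes is shown first, because CRE and CArG sequences are the textbook elements of activity-dependent transcription. RefSeq promoter windows (GRCm38.p6) were at hand for 29 of the 39 genes, in 42 windows, of which the 250 bases before each start were searched on both strands. *Bdnf* has 7 and *Egr2* 5 of these windows, several of them overlapping. The array files name no genome build, and the coordinates belong to the RefSeq windows only. The 10 genes without a window were *Fosl1*, *Arc*, *Sik1*, *Myc*, *Egr3*, *Egr1*, *Dusp4*, *Ier2*, *Nptx2* and *Trib1*. *Atf3* and *Maff* are shown because they were called higher in the ipsilateral cortex of both genotypes. *Nptx2* was also called in both but could not be shown. *Fos*, *Egr2*, *Dusp1*, *Btg2* and *Nr4a1* were chosen after their values were seen, as members that did not share that pattern. Capitals mark the CRE core TGACG on either strand, its full palindrome TGACGTCA and the CArG box. For *Atf3* (chr1:191183334-191183583, minus strand) and *Fos* (chr12:85473640-85473889, plus strand) all 250 bases are given. For the others 30 bases are given, at chr15:79347480-79347509 (plus) for *Maff*, chr10:67537797-67537826 (plus) for *Egr2*, chr17:26508597-26508626 (minus) for *Dusp1*, chr1:134079303-134079332 (minus) for *Btg2* and chr15:101266793-101266822 (plus) for *Nr4a1*.
*Atf3*: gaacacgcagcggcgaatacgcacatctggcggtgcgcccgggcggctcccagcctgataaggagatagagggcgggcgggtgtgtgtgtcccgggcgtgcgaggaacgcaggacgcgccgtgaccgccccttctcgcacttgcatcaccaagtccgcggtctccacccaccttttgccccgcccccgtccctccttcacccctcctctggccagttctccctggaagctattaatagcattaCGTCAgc
*Fos*: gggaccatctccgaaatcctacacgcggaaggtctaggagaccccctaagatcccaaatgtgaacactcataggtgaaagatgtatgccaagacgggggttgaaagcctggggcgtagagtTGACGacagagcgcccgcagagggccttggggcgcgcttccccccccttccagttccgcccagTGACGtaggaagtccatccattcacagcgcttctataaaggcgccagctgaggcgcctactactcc
*Maff*: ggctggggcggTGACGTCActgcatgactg
*Egr2*: CCATATATGGgcagcgaCGTCAcgggtatt
*Dusp1*: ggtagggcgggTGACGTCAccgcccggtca
*Btg2*: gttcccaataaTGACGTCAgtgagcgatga
*Nr4a1*: gcccctctccatgCGTCAcggagcgcttaa

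The CRE core lay in at least 1 window of 19 of the 29 genes, or 65.5%, and of 22.6% of 17491 protein-coding genes. The full CRE was present in *Btg2*, *Dusp1* and *Maff*, which is 10.3% of the 29 genes against 2.20% of protein-coding genes. The CArG box was found in *Dusp5* and *Egr2*, 6.90% against 1.60%. Boxes further upstream, or in genes without a window such as *Egr1*, were not searched for. The AP-1 motif TGANTCA was found in 1 gene, *Bdnf*, or 3.45% of the genes against 7.19%. The windows of the 29 genes also had more G and C, 60.8% on average against 55.5% for protein-coding windows, and the part of this in the counts was not tested. The full CRE stands both in *Maff*, which was called higher in the ipsilateral cortex, and in *Dusp1*, which read lower there. A match describes the letters only and does not show that a factor binds.

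In the injured cortex the list split by gene rather than moving as a block. In WT mice 5 of 39 genes were higher and 1 was lower on the ipsilateral side, where 2.41% and 0.444% of all 13291 detected genes were called. In *P4htm*-/- mice 3 of 39 were higher and 0 were lower, against 1.53% and 0.166% of 13264 genes. The genes called higher in both genotypes were *Atf3*, *Maff* and *Nptx2*. With the mean of all probe sets of a gene, *Nptx2* gave 0.50 in WT and 0.55 in *P4htm*-/- cortex, below the limit in both, and *Ptgs2*, at 0.78, was called in *P4htm*-/- cortex instead. These means include a second probe set near background, above it on 1 array for *Nptx2* and on 3 for *Ptgs2*. The median difference of the list was -0.04 in WT and 0.13 in *P4htm*-/- cortex on the log2 scale, and that of all detected genes was -0.02 in both. Above 0 were 46.2% of the list in WT and 69.2% in *P4htm*-/- cortex, against 44.9% and 41.7% of detected genes.

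**Figure D1:**
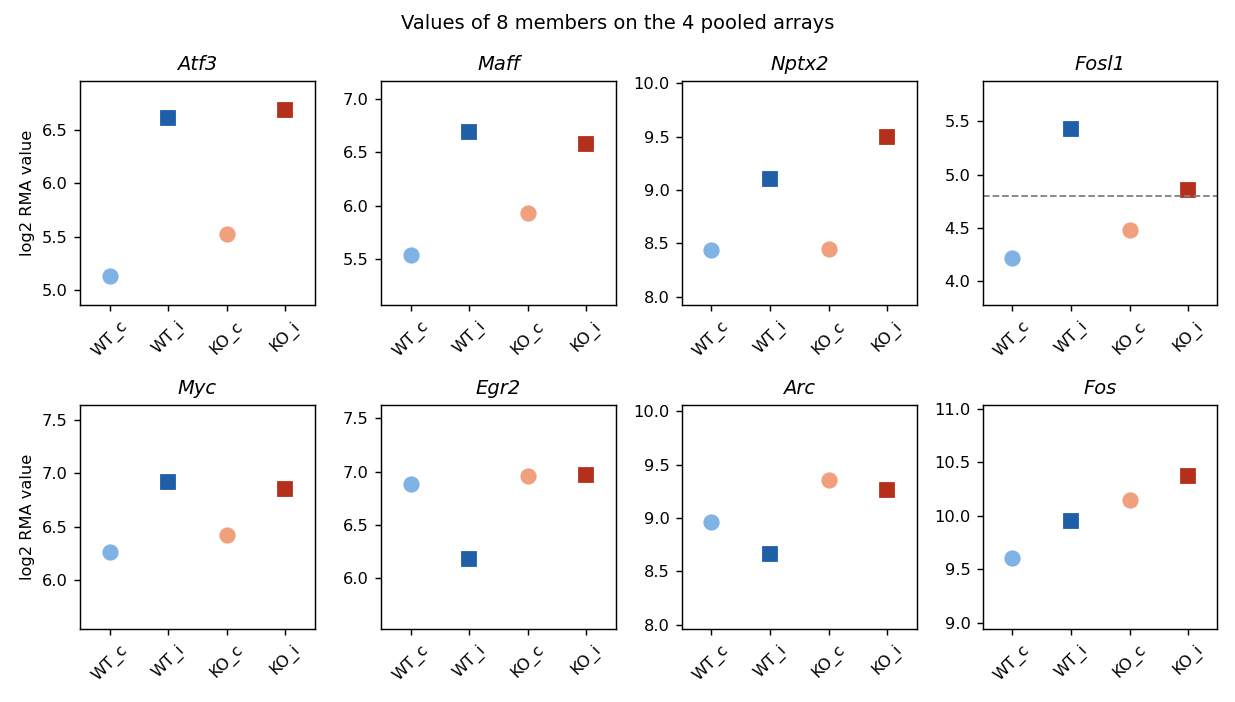
Log2 RMA values (vertical axes, each spanning 2.1 units) of 8 of the genes on the 4 arrays, with circles for contralateral and squares for ipsilateral cortex, blue for WT and red for *P4htm*-/- (KO). Each symbol is 1 pooled array and the dashed line in the *Fosl1* panel is the background limit of 4.80; *Atf3*, *Maff* and *Nptx2* are higher in both ipsilateral arrays, while WT_i holds the lowest value of *Egr2* and *Arc*.

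Among the AP-1 and related bZIP factors, which bind DNA as dimers, *Atf3* had the largest ipsilateral difference of the list. *Atf3*, a stress-induced factor of injured cells, read 5.13 in WT_c, 6.61 in WT_i, 5.52 in KO_c and 6.68 in KO_i. Both injured cortices thus lay above both contralateral ones, by 2.79-fold in WT and by 2.23-fold in *P4htm*-/- mice. *Maff*, a small Maf protein without a transactivation domain, read 5.54 in WT_c, 6.69 in WT_i, 5.93 in KO_c and 6.58 in KO_i. Its difference was 1.15 in WT and 0.65 in *P4htm*-/- cortex on the log2 scale, and its KO_c value was the higher of the contralateral pair. *Fosl1*, which encodes Fra-1, read 4.22 in WT_c and 4.48 in KO_c, both below background, and 5.43 in WT_i and 4.86 in KO_i. Against the background limit it was therefore at least 0.63 higher in WT ipsilateral cortex and at least 0.06 in *P4htm*-/-, so that only the former is past 1.5-fold. Its second probe set was below background on all 4 arrays.

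The classical Fos and Jun genes were not called between the hemispheres. *Fos*, the prototype immediate early gene, read 9.61 in WT_c, 9.95 in WT_i, 10.15 in KO_c and 10.37 in KO_i. The ipsilateral side was higher by 0.34 and 0.22, and both *P4htm*-/- values lay above both WT values. *Jun*, the main partner of Fos, read 9.31 in WT_c, 9.46 in WT_i, 9.43 in KO_c and 9.75 in KO_i, and its second probe set gave 0.20 and 0.16 for the ipsilateral difference. *Junb*, a Jun protein that often restrains Jun, read 7.31, 7.26, 7.5 and 7.72 in the same order, lowest in WT_i and highest in KO_i. *Fosb*, known for a long-lived splice form, read 6.07, 6.00, 6.13 and 6.26 in that order. For *Fosl2*, which encodes Fra-2, the order of values was again WT_c 8.86, WT_i 8.47, KO_c 8.94 and KO_i 8.98, and its second probe set also gave a negative difference in WT, of -0.27, and a positive one in *P4htm*-/- cortex, of 0.09. *Jund*, the most constitutive Jun gene, read 12.07 in WT_c, 11.86 in WT_i and 12.01 in both *P4htm*-/- arrays.

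The Egr genes, which encode zinc finger factors of synaptic activity, had 1 call between the hemispheres, *Egr2* in WT. All 4 read below 0 in WT, by -0.24 to -0.70, where 53% of detected genes did so. *Egr2*, also known as a regulator of myelination, read 6.88 in WT_c, 6.18 in WT_i, 6.96 in KO_c and 6.97 in KO_i. WT_i alone stood apart, 1.62-fold below WT_c, and the second probe set gave -0.61 for this difference. In *P4htm*-/- mice the second probe set read 6.91 in KO_c and 6.61 in KO_i, where the first one differed by 0.01. *Egr3*, which is induced downstream of *Egr1*, read 11.33 in WT_c, 10.95 in WT_i, 11.24 in KO_c and 11.33 in KO_i. A dimmer probe set of *Egr3* went the other way in WT, from 5.43 in WT_c to 5.71 in WT_i, and the transcript forms that each set reports were not determined. *Egr1*, a marker of recent neuronal activity, read 12.91, 12.64, 13.05 and 13.01 in the order WT_c, WT_i, KO_c and KO_i. *Egr4* read 7.09, 6.85, 7.12 and 7.11. The median of the Egr genes was -0.325 in WT and 0.00 in *P4htm*-/- cortex for ipsilateral minus contralateral.

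The Nr4a genes, orphan nuclear receptors induced by cAMP and calcium, held no call between the hemispheres, and their representative sets gave -0.28 to -0.32 in WT. *Nr4a1* read 9.76 in WT_c, 9.48 in WT_i, 10.04 in KO_c and 9.96 in KO_i. *Nr4a2*, also required in dopamine neurons, read 10.38, 10.06, 10.39 and 10.33 in the same order. The 3 other *Nr4a2* probe sets above background gave -0.39 to -0.53 in WT and -0.02 to -0.06 in *P4htm*-/- cortex, so the representative set had the smallest WT difference of the 4. *Nr4a3* read 9.26 in WT_c, 8.97 in WT_i, 9.41 in KO_c and 9.16 in KO_i. The differences of *Nr4a3* were thus -0.29 in WT and -0.25 in *P4htm*-/- cortex, but a dimmer probe set, above background on 3 arrays, gave 0.46 and -0.09, and the mean of its probe sets turned the WT difference to 0.057.

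Among the other transcription regulators, only *Myc* was called. *Myc*, a driver of growth and proliferation, read 6.26 in WT_c, 6.92 in WT_i, 6.42 in KO_c and 6.85 in KO_i, which is 0.66 higher in WT and 0.43 in *P4htm*-/- ipsilateral cortex. *Ier3*, a stress and NF-kappaB target, read 8.22, 8.69, 8.15 and 8.53 in the same order, both ipsilateral values above both contralateral ones. *Klf6*, a zinc finger factor of injury responses, differed by 0.24 in WT and 0.23 in *P4htm*-/- cortex, and its other 3 probe sets above background by 0.10 to 0.20. *Klf2*, a flow-responsive endothelial factor, was highest in WT_c at 8.51 and lowest in WT_i at 8.14, with 8.29 in KO_c and 8.32 in KO_i. *Npas4*, which is restricted to neurons and to depolarization, read 6.99 in WT_c, 6.95 in WT_i, 7.31 in KO_c and 7.10 in KO_i. Its ipsilateral difference was -0.04 in WT and -0.21 in *P4htm*-/- cortex. *Btg2*, an antiproliferative gene, read 8.26 in WT_c, 7.93 in WT_i, 8.39 in KO_c and 8.27 in KO_i. *Klf4*, *Ier2* and *Ier5* differed between the sides by -0.06 to 0.17.

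The genes of negative feedback held no call in either genotype. *Gadd45b*, a stress sensor that acts on the p38 and JNK pathways, read 8.66 in WT_c, 9.13 in WT_i, 8.64 in KO_c and 9.13 in KO_i. Its ipsilateral difference was 0.47 and 0.49, nearly equal in the genotypes, and a second probe set of like level gave 0.50 and 0.41. *Trib1*, a pseudokinase that directs protein degradation, read 6.65 in WT_c, 7.13 in WT_i, 6.84 in KO_c and 7.0 in KO_i. Between the hemispheres the MAPK phosphatases of the list, *Dusp1*, *Dusp4*, *Dusp5* and *Dusp6*, did not share a direction. Each read higher in *P4htm*-/- than in WT mice on both sides, as did 22.1% of 13089 detected genes. Of the other MAPK phosphatases measured, some read higher on both sides and some lower on both. *Dusp1*, which acts on p38 and JNK, was higher in both *P4htm*-/- arrays, with 10.37 in WT_c, 10.05 in WT_i, 10.67 in KO_c and 10.49 in KO_i. *Dusp4* read 6.62, 6.36, 6.69 and 6.85 in that order, lowest in WT_i. *Dusp5*, which acts on ERK in the nucleus, was higher on the ipsilateral side by 0.20 in WT and 0.24 in *P4htm*-/- cortex, from 7.25 to 7.45 and from 7.51 to 7.75. *Dusp6*, which acts on ERK in the cytoplasm, was the steadiest of these, between 10.28 and 10.43 on the 4 arrays. *Rgs2*, a regulator of G protein signaling, was 0.20 higher in WT and 0.24 higher in *P4htm*-/- ipsilateral cortex, and its other 2 probe sets of like level gave 0.15 to 0.26. *Sik1*, a kinase that restrains CREB coactivators, lay between 6.09 and 6.28.

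Of the 6 synaptic and secreted effectors, only *Nptx2* was called, in both genotypes, while 4 of 6 read above 0 and *Arc* and *Homer1*, which act inside the postsynapse, read below 0. *Nptx2*, a secreted pentraxin that clusters AMPA receptors, read 8.44 in WT_c, 9.10 in WT_i, 8.45 in KO_c and 9.5 in KO_i. The contralateral values were nearly equal, and the ipsilateral difference was 1.58-fold in WT and 2.07-fold in *P4htm*-/- mice. A dimmer second probe set of *Nptx2*, between 4.34 and 4.83, gave 0.34 and 0.05. *Ptgs2*, the inducible cyclooxygenase of prostaglandin synthesis, read 7.97 in WT_c, 8.38 in WT_i, 8.01 in KO_c and 8.54 in KO_i, and its dimmer probe set gave 0.43 and 1.03. *Bdnf*, a neurotrophin released by active neurons, read 9.23, 9.59, 9.16 and 9.57, and *Inhba*, which encodes an activin subunit, read 8.55, 8.87, 8.48 and 8.96, so that both ipsilateral values exceeded both contralateral values for these genes. *Arc*, which drives the removal of AMPA receptors from synapses, read 8.96 in WT_c, 8.66 in WT_i, 9.36 in KO_c and 9.26 in KO_i. The 5 probe sets of *Homer1* above background, a scaffold gene with a short activity-induced form, differed in WT by -0.16 to -0.40 and in *P4htm*-/- cortex by -0.03 to 0.08. Which of these sets reports the short form was not determined.

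**Figure D2:**
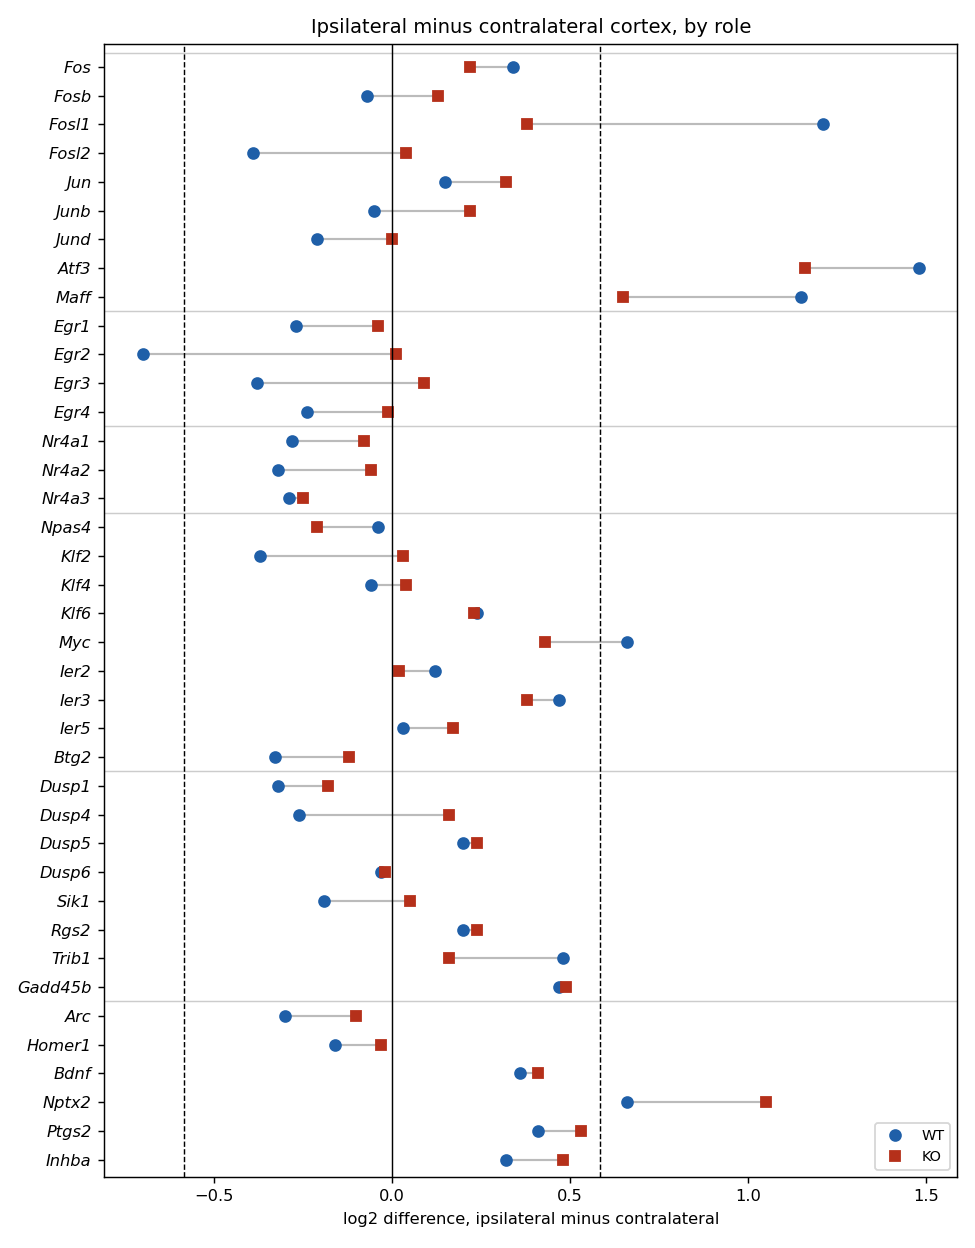
Log2 difference between ipsilateral and contralateral cortex (horizontal axis) for each of the 39 genes, in WT (blue circles) and *P4htm*-/- mice (KO, red squares), from 1 pooled array per condition, with grey lines between the groups by role. Dashed lines mark 1.5-fold, past which *Atf3*, *Maff* and *Nptx2* lie in both genotypes, *Fosl1*, *Myc* and, on the lower side, *Egr2* in WT; the *Fosl1* values are measured differences from contralateral values below background.

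The 2 genotypes were then set side by side. Of the 39 genes, 18 (46.2%) were above 0 in both and 11 (28.2%) below 0 in both, against 22.6% and 32.9% of 13141 genes detected in both comparisons. Another 10 (25.6%) were below 0 in WT and at or above 0 in *P4htm*-/- cortex, near the 20.3% of detected genes, and 0 had the reverse pattern, against 22.1%. These 10 were *Fosb*, *Fosl2*, *Junb*, *Jund*, *Egr2*, *Egr3*, *Klf2*, *Klf4*, *Dusp4* and *Sik1*. The *P4htm*-/- difference was the larger, in signed terms, for 29 genes, or 74.4% against 50.1% of detected genes, and the smaller for 10, among them *Fosl1*, *Maff*, *Atf3*, *Trib1* and *Myc*. Across genes, which are not independent replicates, Pearson's r between the genotypes was 0.83 over the 39 genes and 0.60 over 13141 genes detected in both. Spearman's rank correlation was 0.81 and 0.27 over the same sets. The 2 comparisons share no array, although each sets the sides of the same mice against each other.

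**Figure D3:**
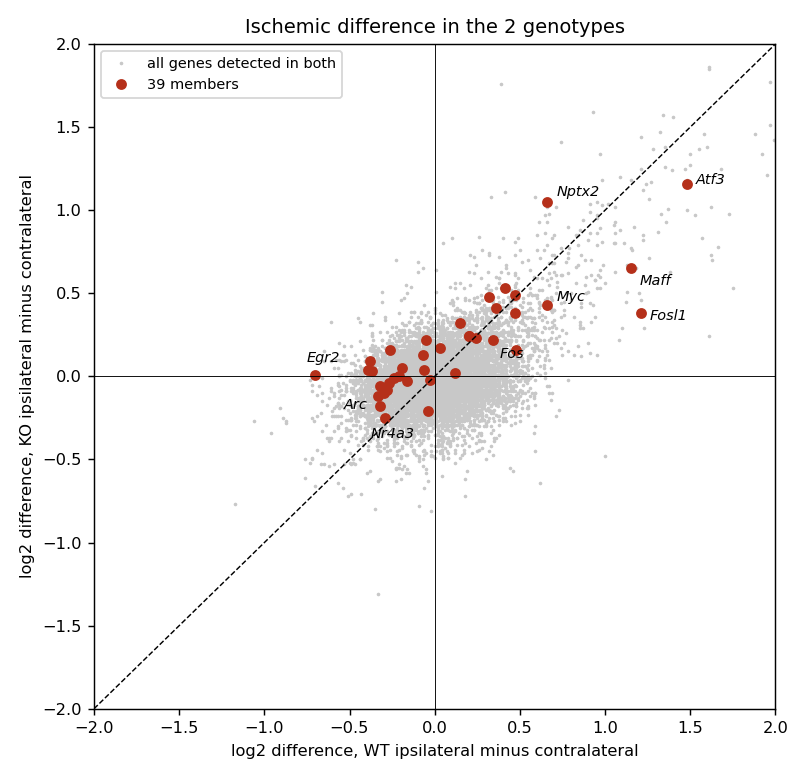
Log2 difference between ipsilateral and contralateral cortex in WT (horizontal axis) and in *P4htm*-/- mice (KO, vertical axis), for the 39 genes in red and all genes detected in both comparisons in grey, each from 1 pooled array per condition. Genes past 2 on either axis are not drawn and the dashed line marks equal differences; *Egr2* and *Fosl1* lie off that line, at a WT difference of -0.70 and of 1.21, the latter measured from a contralateral value below background.

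Between the genotypes, the injured cortex of *P4htm*-/- mice had the higher values for most of the list. Of the 39 genes, 31 read higher in KO_i than in WT_i, 7 lower and 1 equal, with a median of 0.17 against -0.01 for all detected genes, of which 46.9% read higher. Past 1.5-fold, *Egr2* was higher by 1.73-fold and *Arc* by 1.52-fold, and 0 were lower, where 0.09% and 0.578% of 13328 detected genes were called. *Arc*, at 0.60 on the log2 scale, is just inside the limit, and *Fosl1*, at -0.57, just outside it on the lower side. At a smaller size of 0.3 on the log2 scale, or 1.23-fold, chosen after the values were seen, 13 genes were higher and 1, *Fosl1*, was lower, against 3.35% and 8.88% of detected genes. After *Egr2* and *Arc* these were *Fosl2* at 0.51, *Dusp4* at 0.49, *Nr4a1* at 0.48, *Junb* at 0.46, *Dusp1* at 0.44, *Fos* at 0.42, *Nptx2* at 0.40, *Egr3* at 0.38, *Egr1* at 0.37, *Btg2* at 0.34 and *Dusp5* at 0.30. The second probe sets of *Egr2* and *Fosl2* gave 0.62 and 0.49, whereas the dimmer set of *Egr3* gave -0.01. The 18 genes that read higher in the injured cortex of both genotypes ranged from -0.57 for *Fosl1* to 0.42 for *Fos* in this comparison, with *Atf3* at 0.07, *Maff* at -0.11 and *Nptx2* at 0.40.

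On the contralateral side the same comparison gave smaller values, and no gene of the list was called, where 0.228% of 13175 detected genes were higher and 0.159% lower. Of 38 genes above background on this side, 27 (71.1%) read higher in KO_c than in WT_c and 9 (23.7%) lower, with a median of 0.075. Of all detected genes 43.1% read higher and 53.1% lower, with a median of -0.01. By at least 0.3, *Fos* was higher at 0.54, *Arc* at 0.40, *Atf3* and *Maff* at 0.39, *Npas4* at 0.32 and *Dusp1* at 0.30, and 0 were lower, against 2.95% and 2.88% of detected genes. The Egr genes were not among these, with a median of 0.055, and *Egr2* differed by 0.08, but its second probe set by 0.31. *Fos*, *Arc* and *Dusp1* thus reached 0.3 on both sides. Over 38 genes, 24 (63.2%) were above 0 on both sides and 2, *Ier3* and *Bdnf*, below 0 on both, against 22.1% and 28.8% of 13089 detected genes.

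**Figure D4:**
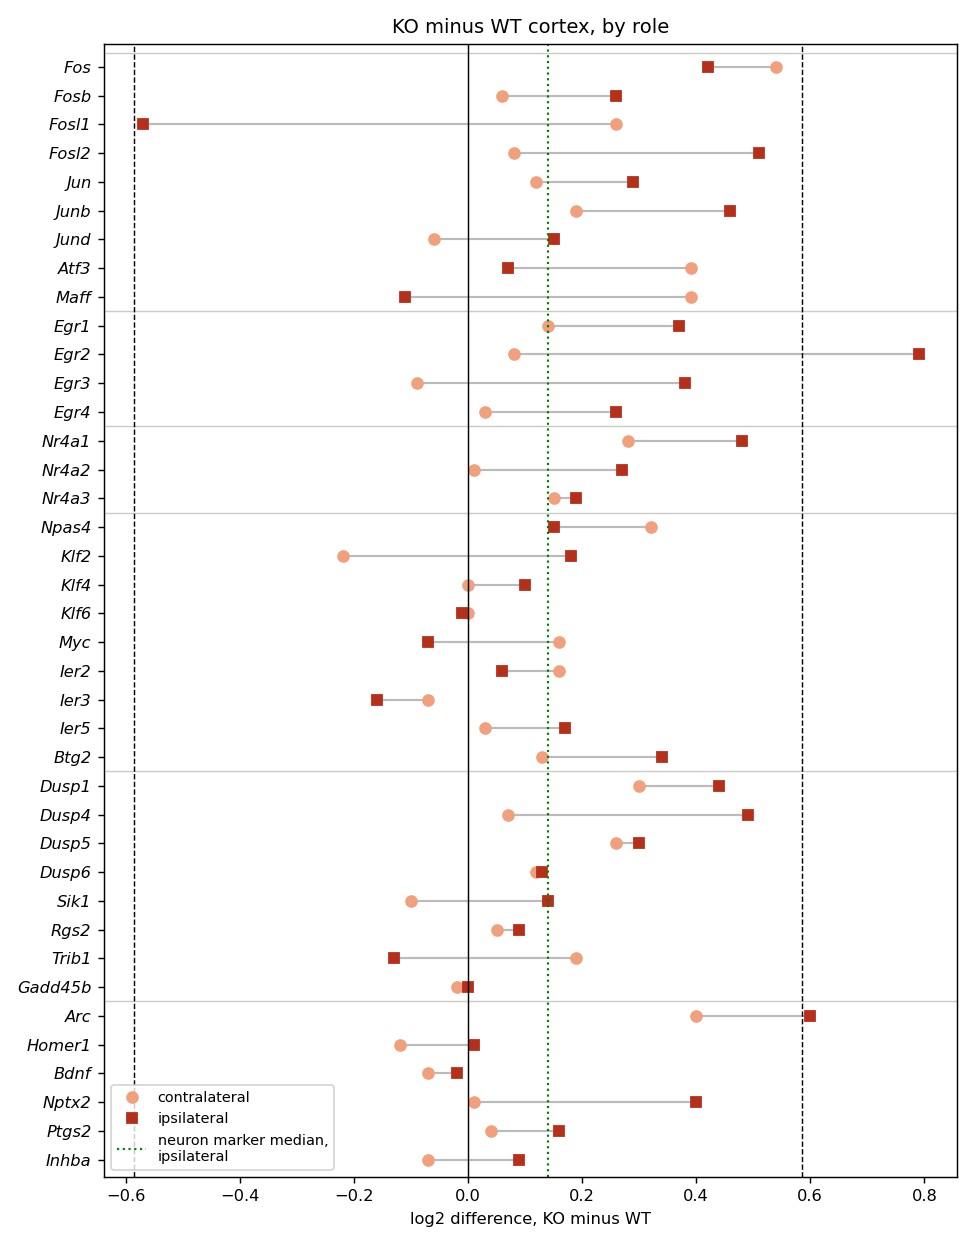
Log2 difference between *P4htm*-/- (KO) and WT cortex (horizontal axis) for each of the 39 genes on the contralateral (light circles) and ipsilateral side (dark squares), from 1 pooled array per condition, with grey lines between the groups by role. Dashed lines mark 1.5-fold and the green dotted line the ipsilateral median of 15 neuron markers, 0.14; only the ipsilateral squares of *Egr2* and *Arc* lie past 1.5-fold, and *Fosl1* lies at -0.57 ipsilaterally, while its contralateral circle comes from values below background.

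Over the 4 arrays, KO_i held the highest value for 16 of the 39 genes, or 41%, where it did so for 18% of 13414 detected genes. KO_c was highest for 10 genes, WT_i for 7 and WT_c for 4, against 18.3%, 29.6% and 29.2% of detected genes, and 2 were tied. The lowest value lay in WT_i for 21 genes, against 31.6% of detected genes, and in KO_i for 0, against 27.9%. WT_i enters both the difference between the WT sides and that between the injured cortices, so these are not separate observations. For *Egr2*, *Egr3*, *Fosl2*, *Klf2*, *Dusp4* and *Arc* WT_i was the lowest of the 4 arrays, and for *Fos* it was WT_c. Both *P4htm*-/- values lay above both WT values for *Fos*, *Arc*, *Egr2*, *Fosl2* and *Dusp4*, but not for *Egr3* and *Klf2*.

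Markers of neurons differed in the same direction as the list between the injured cortices. Of 15 neuron markers 14 read higher in KO_i than in WT_i and 0 lower, with a median of 0.14, and their summed linear level was 97891 in WT_c, 86452 in WT_i, 95966 in KO_c and 95073 in KO_i. *Syt1*, a synaptic vesicle protein, differed by 0.28, *Syp*, another one, by 0.22, and the cytoskeletal genes *Nefm* and *Map2* by 0.21 and 0.20. Of the 39 genes, 23 exceeded the neuron marker median and 15 lay below it, and *Egr2*, *Arc*, *Fosl2* and *Dusp4* were among those above the highest marker. For WT_i minus WT_c the neuron markers had a median of -0.16, and on the contralateral side that of KO minus WT was -0.06, where the list had 0.075. Fewer neurons and less RNA per neuron cannot be told apart in pooled tissue, and the part of the neuron share in the Egr and Nr4a values was not tested. Striatal markers also read higher in KO_i than in WT_i, with a median of 0.195 and 6 of 8 above 0. Monocyte and macrophage markers were lower there, with a median of -0.19 over 7 detected genes, and oligodendrocyte markers, at -0.19, were lower as 9 of 9. Astrocyte, microglia and endothelium markers had medians of -0.04, -0.07 and -0.10 in that comparison, and hippocampus markers 0.08. Neutrophil markers had a median of 0.22, with 4 of 5 detected ones above 0. Of these, *Ngp* was called higher at 0.65, but it read 4.25 in WT_i, below background, and 4.9 in KO_i, near it. Choroid plexus markers had a median of -0.20, with *Calml4* called lower at -1.67.

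**Figure D5:**
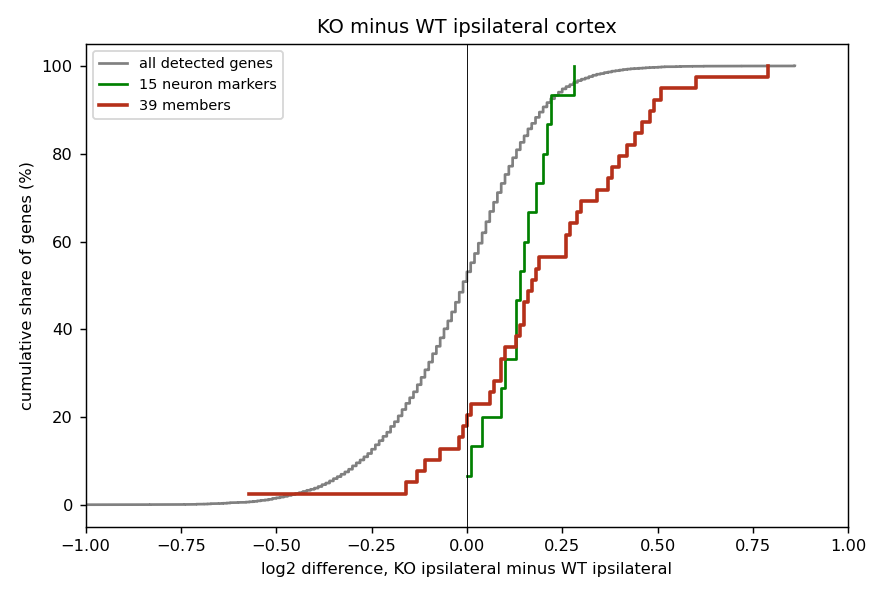
Cumulative share of genes (vertical axis, percent) by log2 difference between *P4htm*-/- (KO) and WT ipsilateral cortex (horizontal axis), drawn from -1 to 1, for the 39 genes (red), 15 neuron markers (green) and all 13328 detected genes (grey), from 1 pooled array per condition. The red curve lies to the right of the grey one, with medians of 0.17 and -0.01, and reaches beyond the green one, which ends at 0.28.

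Markers of monocytes, macrophages and neutrophils were also called higher in the injured cortex of both genotypes. In WT, 6 of 7 detected monocyte and macrophage markers and 3 of 4 neutrophil markers were called higher, and the medians were 1.26 and 2.05. In *P4htm*-/- cortex these were 5 of 7 and 3 of 5, and the medians 1.07 and 1.57. A marker counted as detected through 1 side alone. Some calls, such as *S100a8* and *S100a9* in WT and *Arg1* in both genotypes, thus start from contralateral values below background. Of 9 neutrophil markers measured, 2 were above background in WT_c, 4 in WT_i, 3 in KO_c and 5 in KO_i. *Ngp* passed only in *P4htm*-/- cortex, so the 2 neutrophil medians rest on different markers. *Mpo*, *Elane*, *Camp* and *Cxcr2* were below background on all 4 arrays, as were *Ccr2* and *Plac8* of the monocyte and macrophage list. The summed level of the monocyte and macrophage list was 556 in WT_c, 1478 in WT_i, 553 in KO_c and 1333 in KO_i. Choroid plexus markers were also higher, by a median of 0.98 in WT and of 0.73 in *P4htm*-/- mice, with 3 of 10, *Kcne2*, *Slc4a5* and *Otx2*, below background on all 4 arrays. Above background were 4 of 10 in WT_c, 7 in WT_i, 3 in KO_c and 6 in KO_i, so these medians too rest partly on values below it. The part of these cells in the values of *Atf3*, *Maff*, *Fosl1*, *Myc* and *Ptgs2* was not tested.

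Gene span, the length from first to last base of a gene, went with the differences on these arrays, and immediate early genes are short. The 39 genes had a median span of 7423 bp, against 23593 bp for detected genes. For KO_i minus WT_i the shortest of 5 span classes had a median of -0.08 and the longest one of 0.07, while the 20 genes of the list in the shortest class had a median of 0.22. In the second shortest class the medians were 0.14 for 11 genes of the list and -0.05 for all. For WT_i minus WT_c the shortest class had a median of 0.07, and the 21 genes of the list in it one of -0.06, while in the second class they were 0.03 and, for 10 genes of the list, 0.445. The part of gene span in the differences was not tested.

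The genes related to the list are given by their counts. Of 26 other rapid-response genes, 2 were called higher in WT and 3 in *P4htm*-/- ipsilateral cortex and 0 lower, with medians of 0.175 and 0.185. *Cebpd*, an acute-phase factor, was higher by 1.5 and 1.27, *Ch25h*, a cholesterol hydroxylase of interferon responses, by 1.15 and 1.18, *Cebpb*, a relative of *Cebpd*, by 0.47 and 0.73, and *Gadd45g*, a relative of *Gadd45b*, by 0.57 and 0.49. Between the injured cortices 0 of the 26 were called, with a median of 0.05, and *Cebpb* at 0.35, *Ccn1* and *Sgk1* at 0.32 and *Crem* at -0.34 differed most. On the contralateral side *Per1*, a clock gene that CREB induces, read 8.91 in WT_c and 9.26 in KO_c. Of 12 delayed neuronal activity genes 0 were called in any comparison, and between the sides their median was -0.105 in WT and 0.06 in *P4htm*-/- mice. *Plat*, which encodes tissue plasminogen activator, differed by 0.40 and 0.32, and *Cartpt*, a neuropeptide gene, by -0.18 and -0.54.

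Of 25 regulators upstream of the list 0 were called in any of the 4 comparisons, with medians of -0.07 and 0.00 between the sides in WT and *P4htm*-/- cortex. *Creb1*, which encodes the factor of the CRE, read 9.99 in both WT and 10.01 in both *P4htm*-/- arrays. Between the injured cortices 20 of the 25 read higher in *P4htm*-/- mice, with a median of 0.13, and *Rps6ka5*, a kinase of CREB and histone H3 that stood at 8.68 in WT_c, 8.11 in WT_i, 8.52 in KO_c and 8.48 in KO_i, differed by 0.37. *Camk4*, a nuclear calcium-dependent kinase, differed by 0.31 and was lowest in WT_i, at 10.86. Between the WT sides *Rps6ka5* differed by -0.57 and *Camk4* by -0.48. *Mef2c*, a neuronal transcription factor, differed by 0.30, and *Crtc2*, a CREB coactivator, by -0.43, the widest of the 25. Of 14 other bZIP and MAPK phosphatase genes 0 were called, with medians between -0.06 and 0.075 over the 4 comparisons.

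The other probe sets bear on how firmly single values can be read. The list has 37 probe sets beside the representative ones, and 24 of them, for 13 genes, were above background on all 4 arrays. Their sign matched that of the representative set for 23 of 24 in WT_i minus WT_c and for 20 in KO_i minus KO_c, but for 10 of 24 in KO_c minus WT_c, with 9 opposite. In KO_i minus WT_i 16 matched and 6 were opposite. Where the representative difference was past 0.2, the sign matched for 12 of 13 sets in WT_i minus WT_c and 10 of 10 in KO_i minus KO_c. In KO_i minus WT_i it then matched for 7 of 8. In KO_c minus WT_c 0 of the 24 sets belonged to a gene past 0.2, so the signs there concern small differences only. *Fos*, *Arc*, *Atf3*, *Maff*, *Myc*, *Junb*, *Dusp1*, *Nr4a1* and *Npas4* have 1 probe set each, so their values have no such check. The same holds for *Dusp4*, *Dusp5*, *Dusp6*, *Egr1*, *Egr4*, *Fosb*, *Klf2*, *Ier2* and *Ier3*. Every gene of the list that was higher by at least 0.3 in KO_c minus WT_c is among these.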

How the data were processed

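RNA from the cortex of 4 mice per condition had been pooled by the authors, biotin-labelled as cRNA and hybridized to 1 Affymetrix mouse array per condition. The deposited table holds log2 values per probe set that the authors made with RMA, which corrects background and brings arrays to 1 common distribution. The base of the logarithm was taken as 2 from the range of 2.51 to 14.9, while software versions were not given in the sources used here. Of 45101 probe sets, 34958 name 1 gene, 932 name several and were left out, and 9211 are unnamed. Symbols of 34754 were updated by Entrez ID through RefSeq (GRCm38.p6). The table held 0 unused columns.

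Genes were set to their probe set with the highest mean and compared by log2 differences, with the detection limit and 1.5-fold rule given above. Members, lists and rules were chosen with earlier results of these data known. Named genes are all members, *P4htm* and, of each related or marker list, up to 4 genes with large differences in the comparison described, plus markers below background. *Creb1*, and 5 promoters, were added after the values were seen. Promoters were searched by exact match. The calling step was tested on simulated data. Tables were made in Python 3.11.15 (pandas 2.3.3, numpy 2.4.6), figures in matplotlib 3.10.9, correlations in scipy 1.17.1 and cyclic loess in limma 3.58.1 under R 4.3.3. Alternatives were the mean of probe sets, a 2-fold rule, another background limit, no detection filter, median centring and cyclic loess. With no replicate arrays, the number of arrays limits the precision.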

Additional observations from a re-analysis of the deposited data

How the results depend on the processing

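With the mean of all probe sets of a gene, 3 genes of the list in place of 5 were called higher in WT ipsilateral cortex, since *Nptx2* gave 0.50 there and *Fosl1* was no longer above background. In *P4htm*-/- cortex the count of 3 held *Ptgs2* in place of *Nptx2*. With a 2-fold rule 3 were higher in WT, *Atf3*, *Maff* and *Fosl1*, whose bound of 0.63 does not reach 2-fold, 0 were lower in WT ipsilateral cortex, and 0 were higher in *P4htm*-/- than in WT ipsilateral cortex, so that *Egr2* and *Arc* were called at 1.5-fold only. At 0.3 on the log2 scale, chosen after seeing the data, the counts in *P4htm*-/- minus WT were 6 higher and 0 lower contralaterally and 13 higher and 1 lower ipsilaterally. With the 99th percentile as background, *Fosl1* in WT and *Maff* in *P4htm*-/- cortex were no longer called, so *Atf3* was the only gene called in both genotypes throughout, that is under mean probe sets, a 2-fold rule, either background limit, no detection filter, median centring and cyclic loess. With values below the 99th percentile set to it, however, *Atf3* differed by only 0.01 in WT and 0.08 in *P4htm*-/- cortex. Of the calls at that limit, only those of *Nptx2* and *Arc* then stayed past 1.5-fold. The other counts stayed within 1.5 times, though not always with the same genes, and medians within the receptor scatter, under those settings other than the 2-fold rule. For single genes 10 of 156 differences moved by more than that scatter with the mean of probe sets, and 0 with median centring or cyclic loess. No called difference changed sign under these alternatives. No paired analysis was possible because each condition has 1 array.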
